A study of Homo sapiens with 29 samples.

Results

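Transcripts of the nuclear-encoded subunits of the oxidative phosphorylation complexes were examined in 2 human lung cancer cell lines. A gene was taken when its symbol in the deposited table began with NDUFA, NDUFB, NDUFC, NDUFS, NDUFV, UQCR, COX4, COX5, COX6, COX7, COX8 or ATP5, or was SDHA, SDHB, SDHC, SDHD or CYC1. Assembly factors and antisense genes were left out, and at least 1 FPKM was required in at least 3 of the 18 knockdown libraries. FPKM is a level of fragments scaled by transcript length and by library depth. Of 92 candidate symbols, 83 met this minimum, out of 23710 genes in the table. Of these 83, 37 encode subunits of complex I, 4 of complex II, 9 of complex III, 13 of complex IV and 15 of complex V. The remaining 5 carry a matching symbol without being a subunit of a complex or are paralogs and near copies (NDUFA4L2, UQCRHL, ATP5SL, ATP5S and ATP5EP2), so 78 are subunits. Subunits encoded by the mitochondrial genome were not analysed here.

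H460 and H2122 are established non-small cell lung cancer lines, and both carry mutations of KEAP1, the adaptor that marks the transcription factor NRF2 (gene NFE2L2) for degradation. H2122 cells with a short hairpin RNA (sh) against NRF2 were compared with H2122 cells with a hairpin against GFP, both 24 h into knockdown. H460 cells with hairpins against NRF2, NR0B1 or SNW1 were compared with H460 cells with the GFP hairpin, all at 72 h. NR0B1 is an orphan nuclear receptor, and SNW1 is a cofactor with roles in transcription and pre-mRNA splicing. H460 cells without a hairpin in their labels received BPK29 or BPK9 at 30 µM, or the solvent DMSO, for 12 h. Each of these 9 groups has 3 libraries of polyadenylated RNA, and the line and the length of knockdown differ together. The labels name 1 hairpin target per group and do not say whether the libraries came from separate cultures, so p-values measure the spread between these libraries only.

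Oxidative phosphorylation is the last stage of respiration in the inner mitochondrial membrane. Complexes I and II pass electrons from NADH and succinate to ubiquinone, complex III passes them to cytochrome c, and complex IV passes them to oxygen, while complexes I, III and IV pump protons. Complex V, the ATP synthase, lets protons return through a ring of c subunits and makes ATP. Most subunits are encoded in the nucleus, and their promoters are known for sites of nuclear respiratory factor 1 (gene NRF1), of GABP and of YY1. GABP was first named nuclear respiratory factor 2, which is a different protein from the KEAP1-bound NRF2 that was knocked down here.

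The hairpin libraries held 16709805 to 24613353 recovered reads each, and those with BPK29, BPK9 or DMSO held 19077406 to 24824335. The targets of the hairpins were lower in their own groups. NFE2L2 averaged 26.6 FPKM in H2122 shNRF2 and 58.5 FPKM in H2122 shGFP, and 26.9 FPKM in H460 shNRF2 and 43.3 FPKM in H460 shGFP. NR0B1 averaged 18.2 FPKM in H460 shNR0B1 and 47.6 FPKM in H460 shGFP, and SNW1 averaged 32.2 FPKM in H460 shSNW1 and 51.2 FPKM in H460 shGFP. NR0B1 was also lower after NRF2 knockdown, at 9.06 FPKM in H460 shNRF2 and 0.966 FPKM in H2122 shNRF2. Of 6 epithelial markers, 4 to 6 reached 1 FPKM in every knockdown group. The T cell marker CD3E was at 0 in every library. In H2122 the summed level of 6 immune markers was 105.5 to 108.5 FPKM in shNRF2 libraries and 46.19 to 47.48 FPKM in shGFP libraries, with 3 of 6 at 1 FPKM or more in shNRF2 and 1 of 6 in shGFP. The summed level of 6 epithelial markers was 6505 to 6795 FPKM in H2122 shNRF2 and 4425 to 4485 FPKM in H2122 shGFP. In H460 it was 2060 to 2173 FPKM in shNRF2, 1203 to 1229 FPKM in shNR0B1, 1888 to 1947 FPKM in shSNW1 and 1978 to 2256 FPKM in shGFP, and in shNR0B1 KRT18 (-1.04) and KRT19 (-0.87) were lower. The summed level of 7 fibroblast and endothelial markers was 13.99 to 14.58 FPKM in H2122 shNRF2 and 9.437 to 10.4 FPKM in H2122 shGFP. In H460 it was 16.91 to 17.79 FPKM in shNRF2, 17.75 to 18.6 FPKM in shNR0B1, 6.761 to 7.155 FPKM in shSNW1 and 8.615 to 9.476 FPKM in shGFP. In shNR0B1 COL1A1 (1.30), COL3A1 (0.88) and the immune marker CD14 (0.88) were higher, on the log2 scale, while the endothelial marker CDH5 was at 0 in every H460 knockdown and shGFP library. The part of these shifts in the results below was not tested.

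The 83 genes took a smaller share of the recovered reads after NRF2 knockdown. Their share was 0.927% ± 0.0184 in H2122 shNRF2 and 1.167% ± 0.00905 in H2122 shGFP (SD, n = 3 each). In H460 it was 1.083% ± 0.00632 in shNRF2, 1.195% ± 0.0150 in shNR0B1, 1.255% ± 0.0131 in shSNW1 and 1.251% ± 0.0247 in shGFP. No library of either shNRF2 group overlapped the shGFP libraries of its line in this share. The shNR0B1 libraries, at 1.179% to 1.208%, also lay below the H460 shGFP libraries, at 1.225% to 1.275%, while the shSNW1 and shGFP ranges overlapped. In bulk RNA, fewer cells of a kind and less RNA per cell cannot be told apart, and a share also depends on the amount of all other transcripts.

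Each gene was tested with limma on log2(FPKM + 1). A call required that its p, adjusted by Benjamini-Hochberg over all genes tested, lay below 0.05. Fold changes are on this log2 scale with standard errors (SE) over 3 against 3 libraries, and the scale understates changes of low genes. After NRF2 knockdown in H2122, 52 of 82 tested members were lower and 16 higher, where 38.5% and 48.8% of all 11710 tested genes were called lower and higher. The members' median was -0.25, against 0.09 for all genes tested. After NRF2 knockdown in H460, 48 of 82 were lower and 15 higher, where 39% and 40.9% of all genes were called lower and higher. The members' median was -0.18, against 0.01 for all genes. Set to a common total, 44 were lower and 27 higher in H2122 and 39 were lower and 21 higher in H460, and with median-ratio scaling of the fitted libraries 65 and 8 in H2122 and 51 and 11 in H460.

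The other 2 knockdowns moved fewer members. After NR0B1 knockdown, 41 of 82 were lower and 9 higher, where 36.8% and 33.1% of all genes were called lower and higher, and the median was -0.10 against -0.02. After SNW1 knockdown, 38 of 82 were lower and 14 higher, where 36.4% and 30.8% of all genes were called lower and higher, and the median was -0.10 against -0.03. These counts depend on the depth scaling. With a common total, 28 were lower and 27 higher after NR0B1 knockdown, and 20 were lower and 26 higher after SNW1 knockdown. Most changes were small. At least 1.5-fold lower were 13 members in H2122 shNRF2, where 19.5% of all genes were, 8 in H460 shNRF2, where 14.9% were, 3 in shNR0B1, where 7.15% were, and 1 in shSNW1, where 6.88% were. At least 1.5-fold higher were 2 members in H2122 shNRF2, where 22.3% of all genes were, 1 in H460 shNRF2, where 16.5% were, 2 in shNR0B1, where 6.94% were, and 2 in shSNW1, where 5.43% were. In each comparison the share of members past 1.5 fold was below that of all genes.

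**Figure D1:**
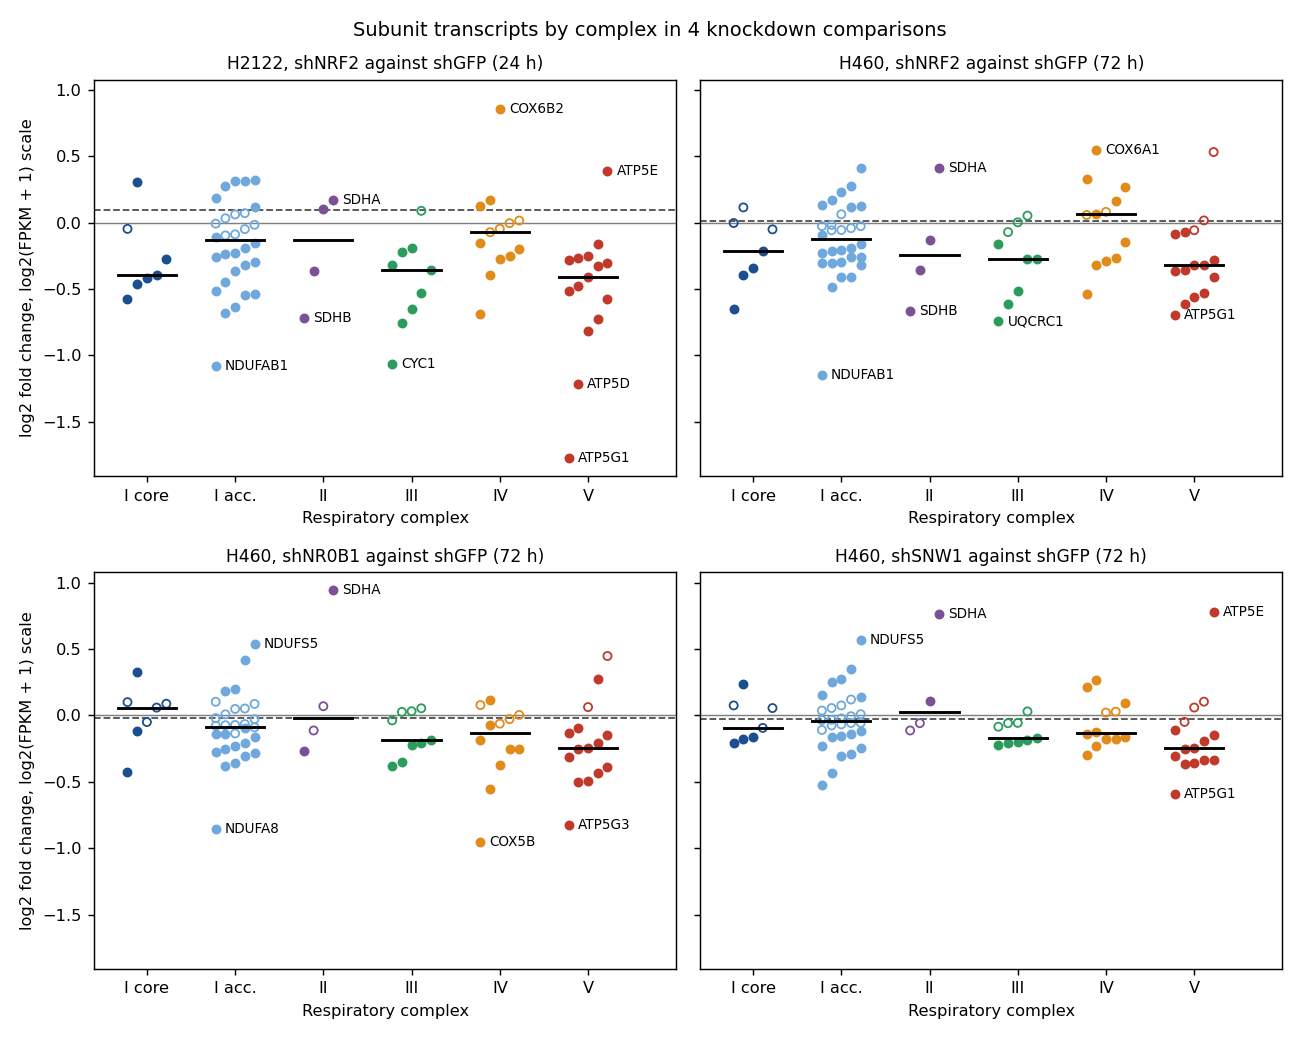
Log2 fold change of each subunit transcript (vertical axis, log2(FPKM + 1) scale) by respiratory complex (horizontal axis) in 4 knockdown comparisons, each of 3 libraries against 3. Filled points passed the test, open points did not, black bars are medians of the complex and the dashed line is the median of all genes tested; in the H2122 panel 14 of 15 complex V points are filled below 0.

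The calls were also counted by complex. Of all genes tested, 38.5% were called lower in H2122 shNRF2, 39% in H460 shNRF2, 36.8% in shNR0B1 and 36.4% in shSNW1, as deposited. In H2122 shNRF2, 14 of 15 complex V genes and 8 of 9 complex III genes were lower, against 21 of 37 in complex I, 2 of 4 in complex II and 6 of 13 in complex IV. In H460 shNRF2, 12 of 15 complex V, 6 of 9 complex III, 20 of 37 complex I, 3 of 4 complex II and 5 of 12 complex IV genes were lower. Complex V also held the most frequent falls in the other knockdowns, with 12 of 15 lower in shNR0B1 and 11 of 15 in shSNW1. Set to a common total, the complex V counts were 13, 10, 8 and 8 in the same order, so most of its genes were called lower under that scaling as well. Whether the complexes differ from each other was not tested.

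Genes of complex V, the ATP synthase, had the 2 lowest fold changes among the subunits in H2122 shNRF2, ATP5G1 and ATP5D. ATP5G1, ATP5G2 and ATP5G3 encode the same mature subunit c, the protein that forms the rotor ring, and differ in their import presequences. ATP5G1 measured 75.6, 68.1 and 73.7 FPKM in H2122 shNRF2, against 246, 251 and 253 FPKM in H2122 shGFP. In H460 it measured 178, 178 and 169 FPKM in shNRF2, 199, 200.2 and 198 FPKM in shNR0B1, 189.6, 186 and 187 FPKM in shSNW1, and 285, 273 and 293 FPKM in shGFP. Every knockdown library lay below every shGFP library of its line. The log2 fold change was -1.77 ± 0.0362 in H2122 shNRF2 (limma adjusted p = 1.35e-10), -0.69 ± 0.0319 in H460 shNRF2, -0.51 ± 0.0319 in shNR0B1 and -0.59 ± 0.0319 in shSNW1.

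ATP5G3 fell most after NRF2 knockdown in H2122 and NR0B1 knockdown in H460. It measured 64.2, 64.1 and 66.9 FPKM in H2122 shNRF2, against 113, 115 and 119 FPKM in H2122 shGFP, a log2 fold change of -0.82 ± 0.0272 (limma adjusted p = 2.53e-09). In H460 it measured 66.5, 62.7 and 68.5 FPKM in shNR0B1, against 120.3, 113 and 119.8 FPKM in shGFP, a log2 fold change of -0.83 ± 0.0361 (limma adjusted p = 3.53e-10). Its values of -0.32 in H460 shNRF2 and -0.25 in shSNW1 were smaller and also passed the test. ATP5G2, the most abundant of the 3 in H460, changed by -0.25 in shNR0B1 and -0.34 in shSNW1, and by -0.06 ± 0.043 in H460 shNRF2 (limma adjusted p = 0.239).

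The make-up of subunit c transcripts also differed after NRF2 knockdown. ATP5G1 held 21.55% ± 0.757 of the summed FPKM of the 3 genes in H2122 shNRF2 and 42.5% ± 0.394 in H2122 shGFP (SD, n = 3 each). ATP5G2 held 59.1% ± 0.501 in H2122 shNRF2 and 37.8% ± 0.434 in H2122 shGFP, and the share of ATP5G3 was 19.4% in shNRF2 and 19.7% in shGFP. The summed level was 336.2 ± 11.7 FPKM in H2122 shNRF2 and 588 ± 8.52 FPKM in H2122 shGFP. In H460 ATP5G1 held 28.57% ± 0.473 in shNRF2, 35.24% ± 0.487 in shNR0B1, 32.99% ± 0.462 in shSNW1 and 37.37% ± 0.727 in shGFP. The 3 shares come from genes with similar coding sequences, and reads that the counting could not place may be missing from them.

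**Figure D2:**
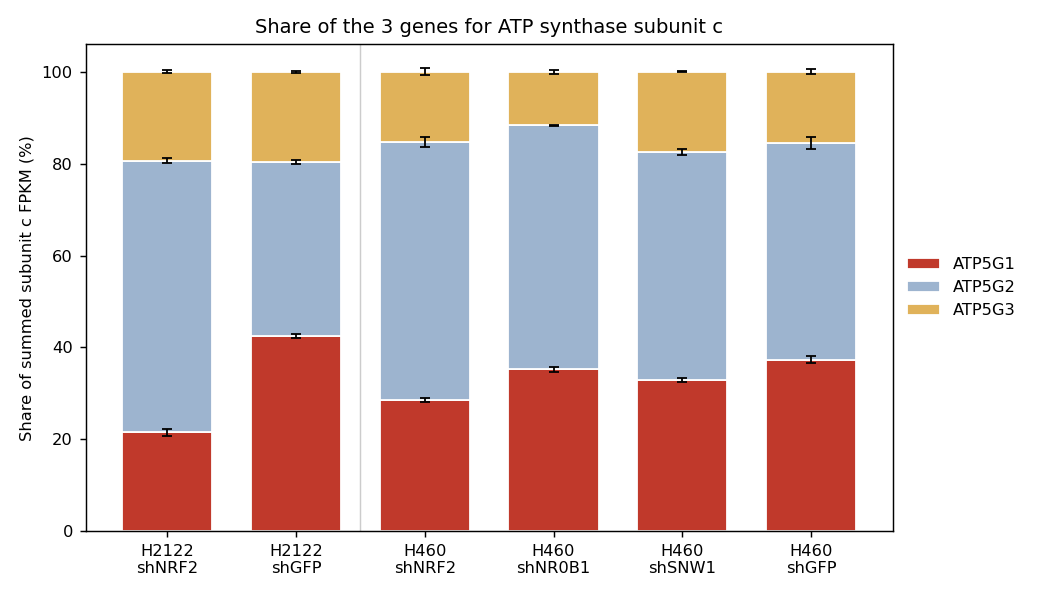
Share of the summed FPKM of ATP5G1, ATP5G2 and ATP5G3 (vertical axis, percent) in the 6 knockdown groups, as means of 3 libraries with SD as error bars. ATP5G1 is at 21.55% in H2122 shNRF2 and 42.5% in H2122 shGFP.

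In H2122 shNRF2 the genes of the catalytic head, ATP5A1 and ATP5B, had smaller fold changes than ATP5G1 and ATP5G3. ATP5A1, the alpha subunit, averaged 206 ± 2.25 FPKM in H2122 shNRF2 and 294 ± 2.83 FPKM in H2122 shGFP, a log2 fold change of -0.51 ± 0.0198 (limma adjusted p = 6.85e-09). It was also lower in H460 shNRF2 (-0.32), shNR0B1 (-0.43) and shSNW1 (-0.33). ATP5B, the catalytic beta subunit and the most abundant complex V transcript in every group, averaged 716 ± 7.78 FPKM in H2122 shNRF2 and 1067 ± 10.5 FPKM in H2122 shGFP (-0.58 ± 0.02). In H460 ATP5B changed by only -0.08 in shNRF2 and -0.09 in shNR0B1, and set to a common total these values were 0.01 and 0.04. ATP5D, the delta subunit of the central stalk, measured 47.9, 46.6 and 56.7 FPKM in H2122 shNRF2, against 117, 114 and 121 FPKM in H2122 shGFP. Its log2 fold change was -1.21 ± 0.0636 in H2122 (limma adjusted p = 5.98e-08) and -0.56 ± 0.0665 in H460 shNRF2, -0.50 in shNR0B1 and -0.36 in shSNW1.

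ATP5E, the epsilon subunit, was the only complex V gene called higher in H2122 shNRF2 and in shSNW1. It was at 5.18 ± 0.949 FPKM in H2122 shNRF2 and 3.68 ± 0.366 FPKM in H2122 shGFP (0.39 ± 0.103, limma adjusted p = 0.00531). In H460 its shGFP libraries spread from 4.11 to 8.82 FPKM, and in shSNW1 the value was 0.78 ± 0.256 (limma adjusted p = 0.016). Its level was the lowest of complex V, and the near copy ATP5EP2 is listed beside it at 0.63 to 3.62 FPKM, so the split of reads between them is uncertain. Without H460 shGFP replicate 2 or 3, or shSNW1 replicate 3, ATP5E was not called after SNW1 knockdown (0.69, 0.58 and 0.67).

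The promoter window of ATP5G1 is shown since this gene had the lowest fold change among the subunits in H2122 shNRF2. It covers 250 bases before to 50 after the annotated start, at chr17:48892537-48892836 on the + strand of GRCh38.p14, from RefSeq, where the gene is named ATP5MC1. Windows were searched on both strands for GCGCNTGCG (NRF1), CCGGAAG (GABPA and other ETS factors), AANATGGCG (YY1) and TGACNNNGC (the antioxidant response element to which NRF2 binds). No capitals appear in it because none of these letters matched.
ATP5G1: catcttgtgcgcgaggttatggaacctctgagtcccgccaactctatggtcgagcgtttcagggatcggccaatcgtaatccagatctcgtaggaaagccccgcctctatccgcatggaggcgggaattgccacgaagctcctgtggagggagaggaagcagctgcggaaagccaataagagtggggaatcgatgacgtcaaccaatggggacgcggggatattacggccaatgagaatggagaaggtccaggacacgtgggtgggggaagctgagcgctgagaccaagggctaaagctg

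Complex III, which passes electrons to cytochrome c, had no gene called higher in any of the 4 knockdowns. The shares of all genes called higher were 48.8% in H2122 shNRF2, 40.9% in H460 shNRF2, 33.1% in shNR0B1 and 30.8% in shSNW1. Set to a common total, 1 complex III gene was called higher in each of H2122 shNRF2, H460 shNRF2 and shSNW1, and 4 in shNR0B1. CYC1, the cytochrome c1 subunit, measured 87.4, 80.8 and 90.8 FPKM in H2122 shNRF2, against 179, 180.1 and 186 FPKM in H2122 shGFP. The libraries did not overlap, and the log2 fold change was -1.07 ± 0.0392 (limma adjusted p = 4.92e-09). In H460 it averaged 100.0 ± 3.26 FPKM in shNRF2, 120.2 ± 4.48 FPKM in shNR0B1, 133 ± 2.58 FPKM in shSNW1 and 154 ± 13.8 FPKM in shGFP. Its values were -0.61 in shNRF2, -0.35 in shNR0B1 and -0.20 in shSNW1, and the last was -0.10 and not called with a common total.

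UQCRFS1, the Rieske iron-sulfur protein, averaged 48.7 ± 0.349 FPKM in H2122 shNRF2 and 82.7 ± 1.18 FPKM in H2122 shGFP (-0.75 ± 0.0223, limma adjusted p = 1.21e-09). It was lower in H460 shNRF2 (-0.51), shNR0B1 (-0.38) and shSNW1 (-0.17). UQCRC1, a core protein of the matrix side, fell by 0.53 in H2122 shNRF2 and 0.74 in H460 shNRF2, and was not called in shNR0B1 (0.03) or shSNW1 (-0.06). It measured 69.5, 57.3 and 61.9 FPKM in H460 shNRF2, against 100.2, 100.3 and 117 FPKM in H460 shGFP. The direct log2 fold change of H460 shNRF2 against shNR0B1 was -0.77 ± 0.0658 for this gene (limma adjusted p = 1.2e-07). UQCRB, a small subunit that contacts the ubiquinone pocket, was not called in any of the 4 knockdowns (0.09, 0.05, 0.05 and -0.06). UQCRH, the hinge protein, averaged 190.2 FPKM in H2122 shNRF2 and 299.7 FPKM in H2122 shGFP (-0.65), and its near copy UQCRHL moved with it (-0.61), so reads of the pair may be split between them.

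Complex II, succinate dehydrogenase, has 4 subunits, and they moved in different directions. SDHA, the flavoprotein that oxidizes succinate, measured 85.9, 82.7 and 86.8 FPKM in H460 shNR0B1, 75.1, 76.7 and 73.8 FPKM in shSNW1, 60.3, 57.3 and 58.7 FPKM in shNRF2, and 42.9, 42.8 and 45.9 FPKM in shGFP. None of these 4 groups overlapped. SDHA rose by 0.94 ± 0.0358 in shNR0B1 (limma adjusted p = 1.02e-10), by 0.77 ± 0.0358 in shSNW1 and by 0.41 ± 0.0358 in shNRF2. In H2122 it averaged 72.8 ± 0.531 FPKM in shNRF2 and 64.4 ± 1.61 FPKM in shGFP (0.17 ± 0.0248), and with median-ratio scaling this value was 0.02 and not called. The pseudogenes SDHAP1, SDHAP2 and SDHAP3 were at 0.63 to 2.86 FPKM in all knockdown libraries, far below SDHA.

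SDHB, the iron-sulfur subunit that takes the electrons from SDHA, measured 66.5, 65.2 and 65.6 FPKM in H460 shNRF2, 87.3, 87.0 and 86.5 FPKM in shNR0B1, 112, 114 and 112 FPKM in shSNW1, and 103, 107 and 103 FPKM in shGFP. It fell by 0.66 ± 0.027 in shNRF2 (limma adjusted p = 3.95e-11) and by 0.26 ± 0.027 in shNR0B1, and rose by 0.11 ± 0.027 in shSNW1. In H2122 it measured 64.9, 64.6 and 65.8 FPKM in shNRF2, against 107, 105 and 111 FPKM in shGFP (-0.72 ± 0.025, limma adjusted p = 3.41e-09). The shNRF2 libraries of both lines thus lay between 64.6 and 66.5 FPKM. The membrane anchor SDHD fell by 0.36 in both NRF2 knockdowns, and the other anchor, SDHC, changed by 0.10 in H2122 shNRF2 and -0.13 in H460 shNRF2.

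SDHA and SDHB, whose products form the catalytic part of the same enzyme, stood at different relative levels in the groups. SDHA was above SDHB in H2122 shNRF2 (72.8 and 65.1 FPKM), while it was below SDHB in H2122 shGFP (64.4 and 108 FPKM). In H460 shNR0B1 the means were 85.1 FPKM for SDHA and 86.9 FPKM for SDHB, in shNRF2 they were 58.7 and 65.8 FPKM, in shSNW1 75.2 and 113 FPKM, and in shGFP 43.9 and 105 FPKM. FPKM is scaled by length, and the authors' gene lengths enter these levels.

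**Figure D3:**
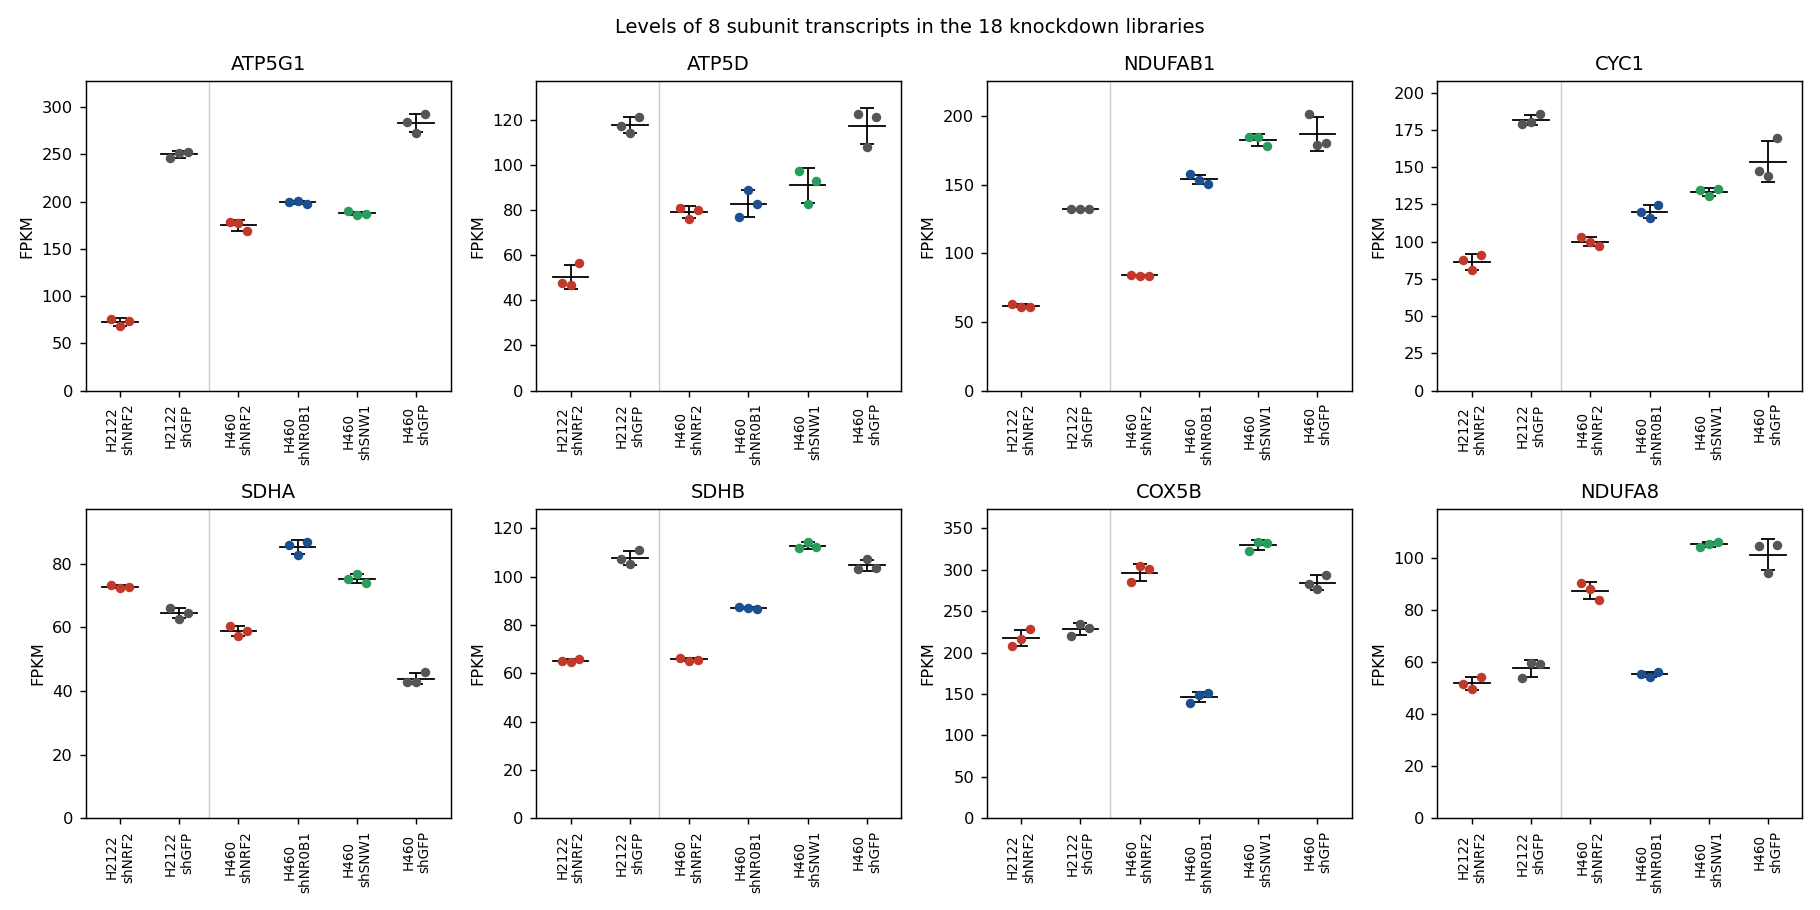
FPKM of 8 subunit transcripts (vertical axes, starting at 0) in each of the 18 knockdown libraries by group (horizontal axis). Points are libraries, horizontal bars are means and error bars are SD of 3 libraries; SDHA is lowest and SDHB is near its highest level in H460 shGFP, and COX5B is lowest in H460 shNR0B1.

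The promoter windows of both genes are shown because their transcripts moved apart. The SDHA window lies at chr5:218070-218369 on the + strand and that of SDHB at chr1:17053983-17054282 on the - strand of GRCh38.p14, both from RefSeq. Capitals mark motif matches. SDHA held 4 copies of CGCAGGCGC, the reverse strand of the NRF1 motif, starting at -165, -116, -67 and -18 from the annotated start, and no other match. SDHB held 1 GABPA and ETS match, CCGGAAG at -128, and 1 YY1 match, AAGATGGCG, starting 10 bases after the start, and no NRF1 match. No matches overlapped.
SDHA: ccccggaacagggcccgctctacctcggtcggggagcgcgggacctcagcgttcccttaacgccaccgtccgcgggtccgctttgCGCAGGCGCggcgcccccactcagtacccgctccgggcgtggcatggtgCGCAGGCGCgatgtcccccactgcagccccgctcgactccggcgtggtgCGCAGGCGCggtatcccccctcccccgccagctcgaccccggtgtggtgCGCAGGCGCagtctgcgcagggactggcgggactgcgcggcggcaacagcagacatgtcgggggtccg
SDHB: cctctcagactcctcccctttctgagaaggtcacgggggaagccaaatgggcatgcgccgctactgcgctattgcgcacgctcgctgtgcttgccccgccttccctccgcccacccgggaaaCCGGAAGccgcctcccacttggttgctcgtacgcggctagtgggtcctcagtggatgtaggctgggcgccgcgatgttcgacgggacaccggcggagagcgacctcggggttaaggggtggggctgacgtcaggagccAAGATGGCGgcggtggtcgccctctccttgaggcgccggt

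The motifs were counted in the 67 members with a RefSeq window. An NRF1 match was found in 31.3% of members, against 11% of 15842 windows of protein-coding genes and 8.05% of all 27305 windows. The 9-letter form of this motif was chosen after matches to a longer form had been seen, so its share was not set in advance. A GABPA and ETS match was found in 28.4% of members, 14.2% of protein-coding genes and 10.7% of all windows, and a YY1 match in 23.9%, 4.81% and 3.37%. At least 1 of these 3 was found in 39 of 67 member windows (58.2%) and in 25.9% of protein-coding genes. The antioxidant response element was found in 14.9% of members, 14.3% of protein-coding genes and 13.6% of all windows. These are letter matches in the reference sequence and describe no binding in these cells.

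Complex I, NADH dehydrogenase, has 37 nuclear genes here, 7 of them core subunits that carry the cofactors of electron transfer. In H2122 shNRF2, 5 of 7 core genes were lower and 1 higher, and in H460 shNRF2 4 of 7 were lower and none higher. Among all genes tested, 38.5% were lower and 48.8% higher in H2122 shNRF2, and 39% and 40.9% in H460 shNRF2. NDUFV1, which binds NADH and FMN, averaged 51.5 ± 0.774 FPKM in H2122 shNRF2 and 77.4 ± 0.34 FPKM in H2122 shGFP (-0.58 ± 0.0222, limma adjusted p = 6.78e-09). In H460 it averaged 84.9 ± 2.32 FPKM in shNRF2 and 88.1 ± 7.87 FPKM in shGFP (-0.05 ± 0.0504, limma adjusted p = 0.371). NDUFV2, its neighbour in the NADH-oxidizing module, went the other way in H2122, with 147 ± 2.09 FPKM in shNRF2 and 119 ± 4.39 FPKM in shGFP (0.31 ± 0.029), and was lower in H460 shNRF2 (-0.21 ± 0.0534).

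NDUFS1, the largest iron-sulfur subunit, fell in all 4 knockdowns, most in H460 shNRF2, where it averaged 52.0 ± 0.861 FPKM against 82.3 ± 1.98 FPKM in H460 shGFP (-0.65 ± 0.0326, limma adjusted p = 3.21e-10). Its other values were -0.27 in H2122 shNRF2, -0.12 in shNR0B1 and -0.21 in shSNW1, and the shNR0B1 value was 0.01 with a common total.

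NDUFAB1, the mitochondrial acyl carrier protein, is both an accessory subunit of complex I and a carrier for mitochondrial fatty acid synthesis. It measured 63.3, 61.0 and 61.2 FPKM in H2122 shNRF2, against 132 FPKM in each H2122 shGFP library, and 84.4, 83.7 and 83.7 FPKM in H460 shNRF2, against 201, 179 and 180.4 FPKM in H460 shGFP. The log2 fold changes were -1.08 ± 0.0225 in H2122 (limma adjusted p = 1.46e-10) and -1.14 ± 0.0405 in H460 (limma adjusted p = 9.79e-12). The difference between the lines was 0.06 ± 0.0542 (limma adjusted p = 0.322). After NR0B1 knockdown its value was -0.28 ± 0.0405 and after SNW1 knockdown -0.03 ± 0.0405 (limma adjusted p = 0.48), and the direct values of H460 shNRF2 were -0.87 ± 0.0405 against shNR0B1 and -1.11 ± 0.0405 against shSNW1, both called.

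Other accessory subunits followed other patterns. NDUFA8, a peripheral subunit, measured 55.4, 54.5 and 56.3 FPKM in H460 shNR0B1, against 105, 94.4 and 105 FPKM in H460 shGFP (-0.86 ± 0.0414, limma adjusted p = 8.68e-10). Its other values were -0.21 in H460 shNRF2, -0.15 in H2122 shNRF2 and 0.06 in shSNW1. NDUFS5 rose by 0.54 ± 0.0416 in shNR0B1 and 0.57 ± 0.0416 in shSNW1. NDUFA13, also known as GRIM-19, was higher in all 4 knockdowns, by 0.32 in H2122 shNRF2, 0.41 in H460 shNRF2, 0.42 in shNR0B1 and 0.25 in shSNW1, and was called higher under every scaling tried. In H460 shGFP it measured 146, 149.8 and 183 FPKM, so replicate 3 lay apart from the other two.

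In complex IV, cytochrome c oxidase, 6 of 13 genes were lower and 3 higher in H2122 shNRF2, and 5 of 12 lower and 5 higher in H460 shNRF2. The shares of all genes tested called lower and higher were 38.5% and 48.8% in H2122 shNRF2, and 39% and 40.9% in H460 shNRF2. COX5A, a matrix-side subunit, averaged 198 ± 12.0 FPKM in H2122 shNRF2 and 319.9 ± 3.13 FPKM in H2122 shGFP (-0.69 ± 0.0384, limma adjusted p = 9.13e-08). In H460 it averaged 171 ± 1.55 FPKM in shNRF2, 169 ± 1.68 FPKM in shNR0B1, 229 ± 4.68 FPKM in shSNW1 and 249 ± 17.3 FPKM in shGFP (-0.54, -0.55 and -0.12). COX4I1, the main regulatory isoform of subunit 4, averaged 352 ± 8.98 FPKM in H2122 shNRF2 and 391 ± 5.13 FPKM in H2122 shGFP (-0.15), and 411 ± 5.55 FPKM in H460 shNRF2 and 341 ± 27.5 FPKM in H460 shGFP (0.27). With a common total the H2122 value rounded to 0 and was not called.

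COX5B, which binds zinc on the matrix side, was called lower in H460 shNR0B1 and, as deposited, in none of the other 3 knockdown groups. It measured 139.7, 148 and 151 FPKM in shNR0B1, 285, 304 and 301 FPKM in shNRF2, 323, 334 and 332 FPKM in shSNW1, and 283, 277 and 294 FPKM in shGFP. All shNR0B1 libraries lay below all other H460 libraries. The log2 fold change was -0.95 ± 0.0373 in shNR0B1 (limma adjusted p = 1.28e-10), 0.06 ± 0.0373 in shNRF2 (limma adjusted p = 0.164) and 0.21 ± 0.0373 in shSNW1. In direct tests shNRF2 lay above shNR0B1 by 1.01 ± 0.0373 (limma adjusted p = 2.01e-11), and the value of shNR0B1 against shSNW1 was -1.16 ± 0.0373. In H2122 the value was -0.07 ± 0.0359 (limma adjusted p = 0.0861), and with median-ratio scaling it was -0.23 and called. The NR0B1 transcript itself was at 9.06 FPKM in H460 shNRF2, where COX5B was not called, and at 18.2 FPKM in shNR0B1. Whether the level of NR0B1 bears on that of COX5B was not tested.

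The promoter window of COX5B is shown because this gene fell after 1 hairpin only in H460. It lies at chr2:97645812-97646111 on the + strand of GRCh38.p14, from RefSeq. The capitals mark 2 GABPA and ETS matches, CCGGAAG, starting at -37 and -5 from the annotated start, and no other motif matched.
COX5B: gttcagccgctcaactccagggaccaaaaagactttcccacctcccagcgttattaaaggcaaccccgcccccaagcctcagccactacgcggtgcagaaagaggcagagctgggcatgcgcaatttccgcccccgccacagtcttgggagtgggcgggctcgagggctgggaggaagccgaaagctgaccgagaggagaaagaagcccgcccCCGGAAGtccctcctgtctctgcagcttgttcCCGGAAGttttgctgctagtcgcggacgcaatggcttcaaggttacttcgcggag

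Several genes of complex IV come in isoform pairs. COX6A1, the widespread isoform of subunit 6A, rose by 0.55 ± 0.036 in H460 shNRF2 (limma adjusted p = 5.86e-09), 0.27 in shSNW1, 0.12 in shNR0B1 and 0.12 in H2122 shNRF2, and the H2122 value was -0.03 with median-ratio scaling. Its muscle partner COX6A2 was at 0 in all 18 libraries, as were COX4I2 and COX7A1. COX6B2, known as the testis isoform of subunit 6B, measured 6.12, 5.57 and 5.33 FPKM in H2122 shNRF2, against 3.34, 2.50 and 2.26 FPKM in H2122 shGFP (0.86 ± 0.0997, limma adjusted p = 2.23e-05), and at most 0.109 FPKM in any H460 library. Its widespread partner COX6B1 was at 194 ± 10.6 FPKM in H2122 shNRF2 and 192 ± 5.17 FPKM in H2122 shGFP (0.02 ± 0.0386, limma adjusted p = 0.699). NDUFA4, first assigned to complex I and now counted with complex IV, rose by 0.33 ± 0.0496 in H460 shNRF2 and fell by 0.38 ± 0.0496 in shNR0B1 and by 0.18 ± 0.0496 in shSNW1. COX7C, COX8A and COX7A2L were lower in all 4 knockdowns, between -0.15 and -0.32, and COX7C stayed lower under every scaling tried.

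NDUFA4L2, a paralog of NDUFA4 known as a hypoxia-inducible gene, moved opposite to NDUFA4 in H460 shNRF2 and shNR0B1. It measured 3.09, 2.47 and 4.24 FPKM in shNRF2, 21.1, 22.2 and 22.5 FPKM in shNR0B1, 8.31, 8.73 and 8.85 FPKM in shSNW1, and 8.76, 8.98 and 10.6 FPKM in shGFP. It fell by 1.31 ± 0.112 in shNRF2 (limma adjusted p = 9.23e-08) and rose by 1.13 ± 0.112 in shNR0B1 (limma adjusted p = 8.56e-07), while the shSNW1 value was -0.12 ± 0.112. In H2122 it stayed at or below 0.152 FPKM and was not tested there. ATP5SL, whose product takes part in complex I assembly despite its name, rose by 0.61 in H2122 shNRF2, 0.30 in H460 shNRF2 and 0.35 in shSNW1. ATP5S, coupling factor B, fell by 0.53 in shSNW1, as did the complex I subunit NDUFB1 (-0.53 ± 0.0455), at 109.6, 121 and 110.1 FPKM in shSNW1, against 170.1, 163 and 159 FPKM in shGFP. Just inside the minimum level were ATP5EP2, COX6B2 and NDUFA4L2, at or above 1 FPKM in 14, 6 and 12 libraries. The 9 candidates left out reached at most 0.392 FPKM (COX8C), and none reached 1 FPKM in any knockdown library.

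Of 81 members tested in all 4 knockdowns, 19 were called lower in each and 3 higher in each (COX6A1, NDUFA13 and SDHA), that is 23.5% and 3.7%. Of all 10731 genes tested in all 4, 12.3% were lower in each and 10.7% higher in each. The 3 H460 comparisons share their shGFP libraries, so these counts are not independent. The 19 comprise 9 complex V genes (ATP5A1, ATP5D, ATP5F1, ATP5G1, ATP5G3, ATP5H, ATP5J, ATP5L and ATP5O), 4 complex IV genes (COX5A, COX7A2L, COX7C and COX8A), CYC1, UQCRFS1 and UQCRH of complex III, NDUFA12 and NDUFS1 of complex I, and UQCRHL. Under all 3 scalings tried, 7 were lower in each knockdown (ATP5A1, ATP5D, ATP5G1, ATP5G3, ATP5H, ATP5O and COX7C) and 1 was higher in each (NDUFA13). The NRF2 knockdowns of both lines, which share no library, had 39 members lower in both and 6 higher in both (48.1% and 7.41%), against 29% and 29.7% of all genes tested. Under all 3 scalings these counts were 32 and 2.

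The size of the NRF2 response differed between the lines for many members, as it did for many genes at large. In a test of the difference, H2122 minus H460, 35 of 83 members were lower and 17 higher, where 34.3% and 37.4% of all 12798 genes were called lower and higher. Line and time of knockdown (24 h and 72 h) cannot be told apart here. The ATP synthase genes ATP5G1 (-1.08 ± 0.0564, limma adjusted p = 2.7e-09), ATP5D (-0.65 ± 0.0938) and ATP5B (-0.49) fell further in H2122. NDUFB2 and NDUFV1 of complex I differed by -0.58 ± 0.0896 and -0.53. Their values were -0.52 and -0.58 in H2122 shNRF2, and 0.06 and -0.05 in H460 shNRF2. NDUFS1 (0.38) of complex I had the lower value in H460. NDUFB1, NDUFB4, NDUFV2 and SDHC were called higher in H2122 shNRF2 and lower in H460 shNRF2, and COX4I1 and NDUFB7 the other way. SDHB (-0.06 ± 0.0387, limma adjusted p = 0.205) showed no difference past the threshold.

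**Figure D4:**
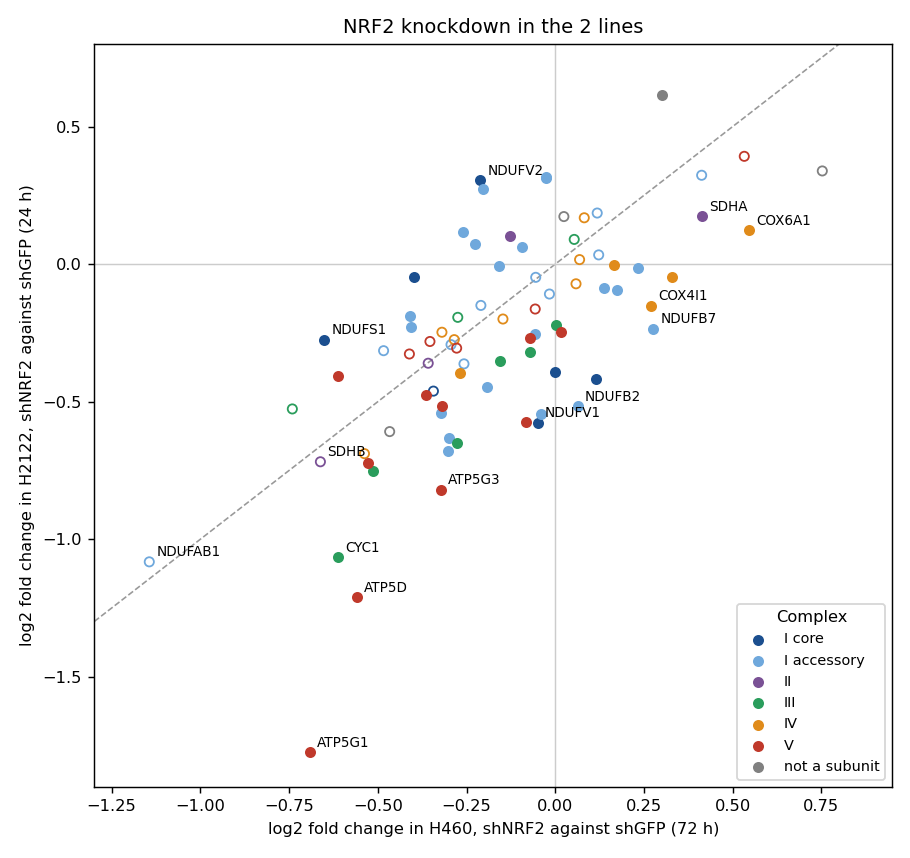
Log2 fold change after NRF2 knockdown in H2122 at 24 h (vertical axis) against that in H460 at 72 h (horizontal axis) for members tested in both lines, coloured by complex. Filled points differed between the lines in the test of the difference, the dashed line marks equal values, and ATP5G1 lies farthest below it, at -1.77 in H2122 and -0.69 in H460.

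Direct comparisons between the H460 knockdowns used the same 12 libraries. Between shNRF2 and shNR0B1, 37 of 82 members were lower and 22 higher in shNRF2, where 36.7% and 37.8% of all genes were called. Between shNRF2 and shSNW1, 37 were lower and 20 higher in shNRF2, where 39.1% and 39.6% were called, and between shNR0B1 and shSNW1, 25 were lower and 24 higher in shNR0B1, where 33.1% and 34.7% were called. The last pair of counts was 29 and 16 with median-ratio scaling, and 14 were higher without shNR0B1 replicate 3. SDHB was lower in shNRF2 than in shNR0B1 (-0.40 ± 0.027) and than in shSNW1 (-0.77 ± 0.027). SDHA was lower in shNRF2 than in shNR0B1 (-0.53 ± 0.0358) and than in shSNW1 (-0.35 ± 0.0358). ATP5G1 differed less between the 3 knockdowns than from shGFP, with -0.19 ± 0.0319 for shNRF2 against shNR0B1, -0.10 ± 0.0319 for shNRF2 against shSNW1 and 0.09 ± 0.0319 for shNR0B1 against shSNW1.

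Genes that build or feed the complexes were counted beside the subunits. The shares of all genes tested that were called lower and higher, against which these counts are read, were 38.5% and 48.8% in H2122 shNRF2, 39% and 40.9% in H460 shNRF2, 36.8% and 33.1% in shNR0B1, and 36.4% and 30.8% in shSNW1. Of 50 respiratory assembly factors, 35 were lower and 11 higher in H2122 shNRF2, 36 and 8 in H460 shNRF2, 28 and 8 in shNR0B1, and 26 and 10 in shSNW1. Their median was -0.44 in H2122 shNRF2 and -0.34 in H460 shNRF2, each below that of the subunits. The lowest in H2122 shNRF2 were the complex I factors NDUFAF4 (-2.06) and NDUFAF2 (-1.79), the copper protein COA6 (-1.63) and LRPPRC (-1.52), which stabilizes mitochondrial mRNAs. NDUFAF2 (-1.42) and COA6 (-1.25) were also the lowest in H460 shNRF2. Cytochrome c (CYCS), the carrier between complexes III and IV, fell by 1.39 in H2122 shNRF2, 0.55 in H460 shNRF2 and 0.40 in shNR0B1. Of 18 genes of the TCA cycle and pyruvate dehydrogenase, 15 were lower and 1 higher in H2122 shNRF2 and 12 and 3 in H460 shNRF2, with FH, fumarase, at -1.02 in H2122 and SUCLG2 at -1.07 in H460. In shSNW1, 6 were lower and 8 higher, among them IDH3A (0.84).

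Regulators, carriers and import genes were counted against the same shares of all genes. Of 14 tested regulators of mitochondrial gene expression, 10 were lower and 2 higher in H2122 shNRF2, with MYC at -1.81, the coactivator PPRC1 at -1.31 and TFAM, which packages and transcribes mitochondrial DNA, at -1.03. In H460 shNRF2, 11 of 15 were lower, with TFB1M at -1.26 and TFAM at -0.77, and the coactivator gene PPARGC1A was higher. All 6 tested adenine nucleotide and phosphate carriers and porins were lower in both NRF2 knockdowns, with VDAC1 at -1.40 in H2122 and VDAC3 at -0.62 in H460. Of 16 genes of import and inner membrane organization, 13 were lower in H2122 shNRF2 and 10 in H460 shNRF2, while 8 were higher and 2 lower in shSNW1. CHCHD3, of the cristae-organizing MICOS complex, was higher in all 4 comparisons, with 0.71 in H2122 shNRF2, 1.10 in H460 shNRF2, 1.04 in shNR0B1 and 1.41 in shSNW1. Among pyruvate dehydrogenase kinases, which switch that enzyme off, PDK4 was higher by 2.46 in H2122 shNRF2 and 1.97 in H460 shNRF2, and PDK1 was lower, at -1.12 in H2122 shNRF2 and -0.24 in H460 shNRF2.

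The compounds moved the subunits far less than the hairpins, and at another time. BPK29 and BPK9 are named by code only and were given at the same dose and time. The gene lengths behind the compound columns differ from those behind the knockdown columns by over 2 fold for 77.11% of members and 54.43% of all 16108 genes compared. Compound values are therefore given as ratios to the DMSO mean. With BPK29, 29 of 79 tested members were lower and 1 higher than with DMSO, where 29.3% and 21.1% of all 11461 genes were called, and none was lower or higher by at least 1.5 fold, where 1.53% and 0.838% were. The members' median was -0.06. With a common total, 18 were lower and 14 higher, so the split rests on the scaling. Of complex V, 9 of 14 tested genes were lower, and 8 of 14 with a common total.

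NDUFS3, a core subunit of complex I, gave ratios of 0.773, 0.797 and 0.809 with BPK29, 1.00, 1.01 and 0.952 with BPK9, and 0.972, 0.986 and 1.04 with DMSO. Its log2 fold change was -0.31 ± 0.0365 for BPK29 against DMSO (limma adjusted p = 0.000105) and -0.29 ± 0.0365 for BPK29 against BPK9. SDHA gave 0.834, 0.863 and 0.872 with BPK29, 1.03, 1.01 and 0.977 with BPK9, and 0.995, 0.997 and 1.01 with DMSO (-0.22 ± 0.0256 for BPK29 against DMSO, limma adjusted p = 8.2e-05). SDHA was thus lower with BPK29 and higher in each H460 knockdown. NDUFA9 (-0.25), the Rieske protein UQCRFS1 (-0.21), ATP5G1 (-0.18), CYC1 (-0.16), SDHB (-0.15) and ATP5S (-0.32) were lower with BPK29 as well, while COX5B (-0.00 ± 0.0455, limma adjusted p = 0.943) was not called. COX6C was the single member called higher (0.06 ± 0.022, limma adjusted p = 0.0481), just inside the threshold. No member was called higher without DMSO replicate 1 or without BPK29 replicate 2.

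With BPK9, no member was called against DMSO by limma, where 0.00873% of all genes were called lower and 0% higher. At an unadjusted p under 0.05 were 13 of 79 members (16.5%), all 13 higher with BPK9, and 1725 of 11461 genes (15.1%), 835 of them higher. Among the 13 were COX5B (0.13), NDUFS5 (0.10) and ATP5I (0.09), and voom on recovered reads called 2 higher. The values of BPK9 against DMSO were -0.02 ± 0.0365 for NDUFS3, 0.01 ± 0.0256 for SDHA and -0.03 ± 0.0341 for ATP5G1. Tested directly, 38 of 79 members were lower with BPK29 than with BPK9 and none higher, where 27.2% and 19.7% of all genes were called, and 12 of the 38 belong to complex V. With a common total, 29 were lower and 5 higher. ATP5S (-0.37 ± 0.0579), NDUFS3, UQCR10 (-0.26 ± 0.0338, limma adjusted p = 0.000197) and SDHA (-0.23 ± 0.0256) gave the lowest values.

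**Figure D5:**
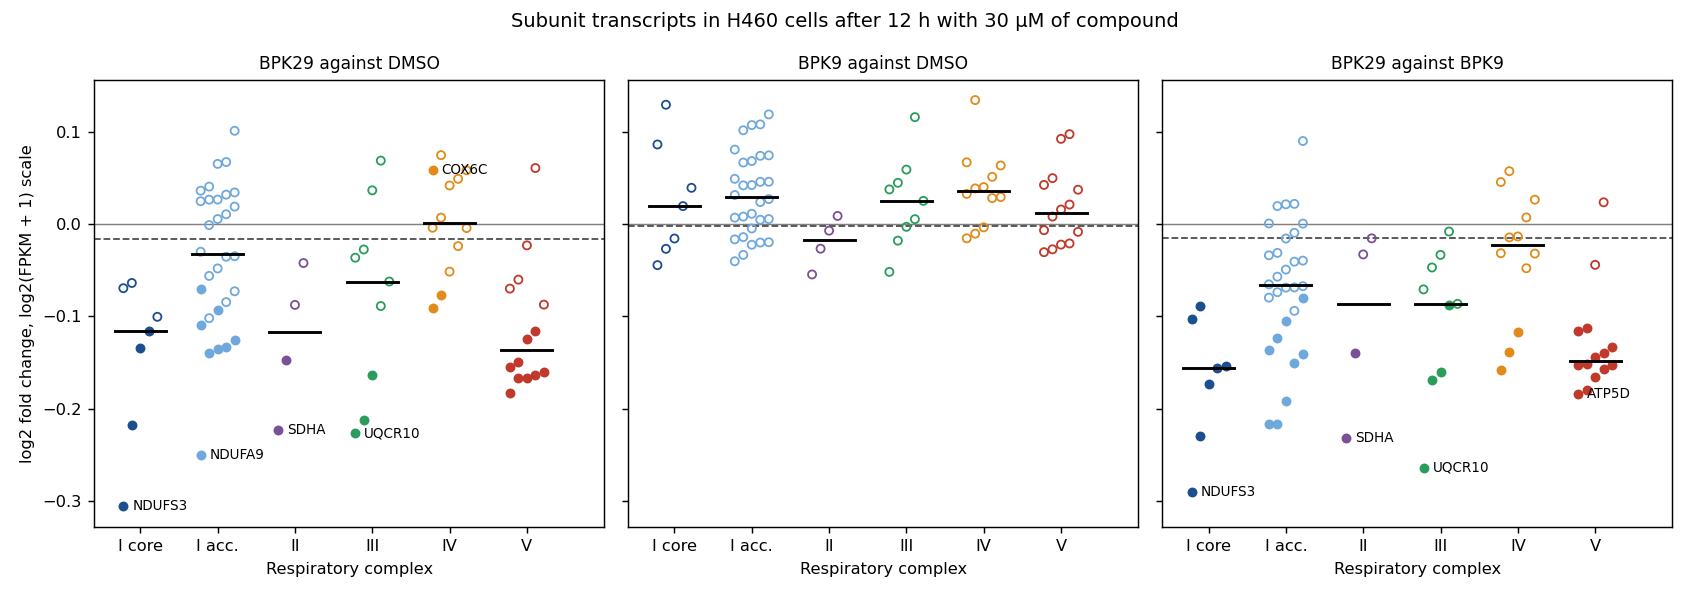
Log2 fold change of each subunit transcript (vertical axis, log2(FPKM + 1) scale) by complex (horizontal axis) for BPK29 against DMSO, BPK9 against DMSO and BPK29 against BPK9 in H460 at 12 h, each of 3 libraries against 3. Filled points passed the test, black bars are medians of the complex and the dashed line is the median of all genes tested; the middle panel has no filled point, and NDUFS3 is at -0.31 in the left panel.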

How the data were processed

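Polyadenylated RNA was sequenced in 27 libraries, in 9 groups of 3, with a kit that does not mark strand (TruSeq version 2, per the labels' protocols), so overlapping antisense genes cannot be told apart. All values come from a deposited FPKM table of the authors. Build hg19 and the tools HOMER, Bowtie2, DESeq2, featureCounts and STAR are named in the submitters' processing notes; their versions, their roles and the annotation are not given there. Whole reads could be recovered from the steps of the deposited FPKM values for 100% of 17871 genes in the knockdown columns and 16211 in the compound columns (tolerance 0.02 reads). The knockdown columns follow median-ratio scaling over all 18 libraries.

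Tests used limma 3.58.1 in R 4.3.3, with a mean-variance trend on log2(FPKM + 1), over genes with 1 FPKM or more in at least 3 libraries fitted. The 12 H460 knockdown libraries, the 6 H2122 libraries and the 9 compound libraries were fitted together, and the line difference was an interaction term. The fits and the recovery were tested on simulated data. Alternatives were a pseudocount of 0.1, no filter, common-total and median-ratio scaling, a replicate block, voom on recovered reads, only the 2 groups compared, and each library left out.

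Named with values were, in each comparison, the 3 called members with the largest change each way without overlap of libraries, core and catalytic subunits, isoform sets and members near the minimum; a few others were named for their pattern across comparisons after their values were seen. The members and lists were chosen with earlier results of these data known. Promoter sequences came from RefSeq (GRCh38.p14); 67 of 83 members matched. The NRF1 motif was shortened to 9 letters after matches to a longer form had been seen. The NR0B1 chromatin data were not used here. Values of 1 member that the naming rule takes are not reported here, while counts over all members include it.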

Additional observations from a re-analysis of the deposited data

Results flagged for a closer look

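The effect of NRF2 knockdown differed between H2122 and H460 for 21 named members in the test of the difference, H2122 minus H460 (limma, Benjamini-Hochberg adjusted over all genes). Negative differences were found for ATP5G1 (-1.08), ATP5D (-0.65), NDUFB2 (-0.58), NDUFV1 (-0.53), NDUFB7 (-0.51), ATP5G3 (-0.50), ATP5B (-0.49), CYC1 (-0.45), COX6A1 (-0.42), COX4I1 (-0.42), NDUFA4 (-0.37), SDHA (-0.24), UQCRFS1 (-0.24) and ATP5A1 (-0.20). Positive differences were found for SDHC (0.23), NDUFB4 (0.38), NDUFS1 (0.38), NDUFB1 (0.48), NDUFV2 (0.52), COX6B2 (0.90) and NDUFA4L2 (1.38). The sign is that of the difference between effects: SDHA and COX6A1 rose in both lines, and NDUFS1 fell in both. COX6B2 was near 0 in H460 and NDUFA4L2 near 0 in H2122, so their differences rest on 1 line each. The lines were also sampled at different times.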

How the results depend on the processing

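Across the alternatives other than leaving out libraries, 136 of 150 counts of called members stayed within 1.5 times the value reported. With leaving out libraries included, 2750 of 2886 values of named members stayed on their side of the threshold, and the called ones among them kept their direction. Of the other named values, 84 were no longer called, 44 were newly called and 8 turned in sign. A turn in sign was counted only where the value was called as reported or under the alternative. With a common total, members called higher numbered 27 after NRF2 knockdown in H2122, 27 after NR0B1 knockdown, 26 after SNW1 knockdown (with 20 lower), 14 with BPK29 against DMSO (with 18 lower) and 5 with BPK29 against BPK9. With median-ratio scaling they numbered 8 in H2122 and 4 with BPK29 against DMSO. Without the filter they numbered 2 with BPK29 against DMSO and 1 against BPK9, and with voom on recovered reads 2 with BPK29 against DMSO, 2 with BPK9 against DMSO and 1 with BPK29 against BPK9. The scaling moved the median of all genes in H2122 from 0.09 to 0.23 with a common total and to -0.04 with median-ratio scaling, while the members' median lay 0.33 to 0.36 below it under all 3.

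The values counted as turned in sign were, with a common total, COX5B (0.076) and NDUFA4 (0.10) in H2122, ATP5B (0.0095) in H460 shNRF2, and NDUFS1 (0.0073), ATP5B (0.035) and COX6B1 (0.055) in shNR0B1. With median-ratio scaling they were COX6A1 (-0.0299) and COX6B1 (-0.14) in H2122. The cause was not tested beyond the scaling itself.

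Leaving out 1 library at a time gave 15 to 17 members higher and 51 to 55 lower in H2122, 12 to 15 and 45 to 48 in H460 shNRF2, 8 to 12 and 35 to 41 in shNR0B1, and 12 to 16 and 33 to 39 in shSNW1. For shNR0B1 against shSNW1 it gave 14 to 20 higher, for BPK29 against DMSO 0 to 1 higher, and for BPK29 against BPK9 0 to 1 higher. H460 shGFP replicate 3 lay above the other shGFP libraries for several members. Without it NDUFV1 (0.16) and COX4I1 (0.14) were called higher after NR0B1 knockdown.

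The replicate numbers were not taken to pair samples, as the labels give groups of 3 and no batch. The correlation of deviations between same-numbered libraries was 0.054 to 0.126 in H2122 and -0.0933 to 0.13 in H460. With the replicate number as a block, 18 members were higher and 54 lower in H2122, and 15 and 47 in H460 shNRF2. Libraries correlated best with their own number in 6 of 6 cases in H2122, which is a hint from the data and not the design. Depth limits low members such as ATP5E and COX6B2, and intervals here cover the spread between 3 libraries only.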
